A study of Mus musculus with 14 samples.

Results

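The genes described here build and load major histocompatibility complex (MHC) class II, the surface molecule with which antigen-presenting cells show peptides to CD4+ T cells. They were taken by symbol and are the 7 genes *H2-Aa*, *H2-Ab1*, *H2-Eb1*, *Cd74*, *Ciita*, *H2-DMa* and *H2-DMb1*, of 33939 genes in the deposited table. All 7 had values above 0 in each of the 14 libraries and all 7 entered every comparison. The choice used the symbols and no measured value.

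CD11b+ microglia/macrophages were sorted with magnetic beads from the contralateral (CL) and the injured, ipsilateral (IL) hemispheres of C57BL/6 mice at 3 days after a controlled cortical impact, a model of traumatic brain injury (TBI). The Ctrl mice carried Cx3cr1-CreER+/-, a tamoxifen-dependent Cre under the promoter of *Cx3cr1*, a receptor gene of microglia and many monocytes, and the cKO mice carried the same Cre with flox/flox alleles of the target gene. All mice were male, 8 to 12 weeks old and treated with tamoxifen, so the Ctrl group shares Cre and tamoxifen with the cKO group. The study waited after tamoxifen for monocytes to be replaced, and the sort takes every CD11b+ cell, infiltrating cells included, so that the genotype of each cell in a library is not known. There were 4 Ctrl CL and 4 Ctrl IL libraries, from the same mice 3541, 3545, 3546 and 3551, and 3 libraries of each cKO hemisphere. Mice 3592 and 791 gave both cKO hemispheres, mouse 788 gave only a cKO CL and mouse 784 only a cKO IL library. These were treated as separate mice, as numbered in the labels. The sources used here do not settle whether they are, and if they were 1 animal the cKO values with the mouse as a block would rest on other pairs than those given here.

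An MHC class II molecule is a pair of an alpha and a beta chain. *H2-Aa* and *H2-Ab1* encode the chains of I-A, and *H2-Eb1* encodes the beta chain of I-E, whose alpha chain C57BL/6 mice do not make. *Cd74* encodes the invariant chain, which fills the peptide groove during transport. *H2-DMa* and *H2-DMb1* encode chains of H2-DM, which removes the rest of the invariant chain in the endosome and helps peptides to bind. *Ciita* encodes the coactivator that switches these genes on, through proteins bound at short X and Y boxes in front of them. In a resting brain, microglia carry little MHC class II, while border-associated macrophages and dendritic cells are richer in it.

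The promoters are shown because the X and Y boxes are what the members are known to share in sequence. RefSeq promoter windows of GRCm38.p6, each 300 bases from 250 before to 50 after a gene's start, were matched for 4 of the 7 members, *H2-Aa*, *H2-Eb1*, *H2-DMa* and *H2-DMb1*. The starts are those of RefSeq, and for *H2-DMa* and *H2-DMb1* they lie downstream of the first base of the gene models whose coordinates are given with the values, so that the windows of *H2-DMa* and most of that of *H2-DMb1* fall inside those models. The Y box was searched as ATTGG and the X box by a longer pattern, of which the first run of capitals in *H2-Eb1* and in *H2-DMb1* is a match, both on either strand. Of 32851 promoter windows, 37.4% hold ATTGG, 0.968% hold the X box pattern and 0.387% hold both. Each stretch below runs 5′ to 3′ on the strand of its gene from 120 to 21 bases before the start, with boxes in capitals, and the capitals near the 3′ end of *H2-Eb1* are an ATTGG on the opposite strand.
H2-Eb1 (chr17:34305747-34305846, plus strand): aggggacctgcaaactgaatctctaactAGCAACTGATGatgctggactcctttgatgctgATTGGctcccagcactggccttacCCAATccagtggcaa
H2-DMb1 (chr17:34153071-34153170, plus strand): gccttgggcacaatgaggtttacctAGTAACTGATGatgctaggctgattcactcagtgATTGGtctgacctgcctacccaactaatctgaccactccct
H2-Aa (chr17:34287844-34287943, minus strand): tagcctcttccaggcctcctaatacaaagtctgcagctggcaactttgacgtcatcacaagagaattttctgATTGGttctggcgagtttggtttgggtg
The X box letters begin 92 bases before the start of *H2-Eb1* and 95 bases before that of *H2-DMb1*, and 22 and 23 bases lie between them and the Y box. *H2-Aa* has the Y box letters 48 bases before its start and no match to the X box letters as spelled. Of the 2 windows of *H2-DMa*, 1 holds ATTGG, 198 bases before its RefSeq start, and the other holds neither. The gamma activated site, searched as TTCNNNGAA, is in 8.30% of all windows and in none of the windows of these 4 members. A match describes letters only, and binding was not measured.

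The libraries rest on 12.2 to 41.6 M reads assigned to genes (M, 1e+06 reads), the median being 34.2 M, as read from the step between neighbouring low values. The library with the fewest was the IL library of Ctrl mouse 3546. Values are read counts scaled to 1e+06 per library (CPM), and *H2-Aa* rests on at least about 3092 reads in each library and *Ciita* on at least about 74 reads, so counting error is small for all members but *Ciita*. Markers of microglia were high in each library, with a summed level of 8 markers from 28153 to 35142 CPM in Ctrl CL and from 16114 to 17244 CPM in Ctrl IL. In the cKO, this sum was 25202 to 27738 CPM in CL and 14566 to 16123 CPM in IL. In such bulk samples, fewer cells of a type and less RNA per cell cannot be told apart.

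Levels between genes were compared per kb of exon (CPM per kb, mean ± SD over the 14 libraries). *Cd74* had the highest level, 449 ± 115, above *H2-Ab1* with 162 ± 45.8 in 14 of 14 libraries. *H2-DMb1* followed with 107 ± 16.1, *H2-Eb1* with 99.6 ± 23.4, *H2-DMa* with 67.9 ± 15.2 and *H2-Aa* with 53.2 ± 12.6. From *H2-Ab1* to *H2-Aa*, the ranges of neighbours in this order overlapped, and the higher gene was above the lower in 10 of 14 libraries for *H2-DMb1* and *H2-Eb1* and in 12 or 13 of 14 for the other pairs. *Ciita*, the coactivator, was at 0.463 ± 0.204, below each of the others in each library. Exon lengths are those of all annotated exons, and the transcripts present may be shorter.

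The first question was whether the members changed with injury in Ctrl mice. 2 of them, the H2-DM genes *H2-DMa* and *H2-DMb1*, were lower in each IL than in each CL library, while the chains of I-A and I-E, *Cd74* and *Ciita* overlapped. In the comparison without regard to the mouse, 0 of 7 members were called, beside 7.52% of 16376 genes tested. A gene was called with a limma Benjamini-Hochberg adjusted p at or under 0.05 over all genes tested and a fold change of at least 1.2. At an unadjusted limma p under 0.05 there were 2 of 7 members, beside 22.0% of all genes tested. With the mouse as a block, which compares the hemispheres within each animal, *H2-DMa* and *H2-DMb1* were called lower, beside 10.3% of all genes called lower in the same fit. With the CPM as deposited both were called as well (adjusted p of 0.0182 and 0.0464 in limma). With that setting 814 of 16376 genes were called lower, beside 546 in the comparison without regard to the mouse. The median log2 fold change of all genes was -0.09 there, beside -0.03. Each of these 2 genes was called in 2 of 18 alternatives. Every IL library was below every CL library for 2 of 7 members, beside 11.4% of all genes tested.

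*H2-DMa* (ENSMUSG00000037649, chromosome 17 from 34119541 to 34139101) was at 295, 311, 241 and 249.99 CPM in the CL libraries of Ctrl mice 3541, 3545, 3546 and 3551 and at 185, 199, 158 and 176 CPM in their IL libraries. In each of the 4 mice the IL value was lower, at 0.625 to 0.702 of the CL value. The group means were 274 ± 33.9 CPM in CL and 179 ± 17.1 CPM in IL (SD, n = 4 each). The log2 fold change was -0.52 (SE 0.17, 95% confidence interval -0.91 to -0.14, limma adjusted p = 0.103), and with the mouse as a block its SE was 0.07 and its limma adjusted p 0.00357.
*H2-DMb1* (ENSMUSG00000079547, chromosome 17 from 34153072 to 34160230), the beta chain of the same molecule, was at 203, 221, 183 and 192 CPM in Ctrl CL and at 133, 152, 161 and 149.6 CPM in Ctrl IL, in the same order of mice. It too was lower in the IL hemisphere of each of the 4 mice, at 0.657 to 0.884 of the CL value. Its log2 fold change was -0.33 (standard error 0.13 and adjusted p = 0.161 in limma), and with the mouse as a block the limma adjusted p was 0.0333. *H2-DMb1* matches *H2-DMb2* at 95.7% identity over 1081 bases, so reads can be exchanged between them, and *H2-DMa* shares 360 exon bases with the antisense gene *Brd2*, from which its reads cannot be told apart unless strand was used in counting.

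**Figure D1:**
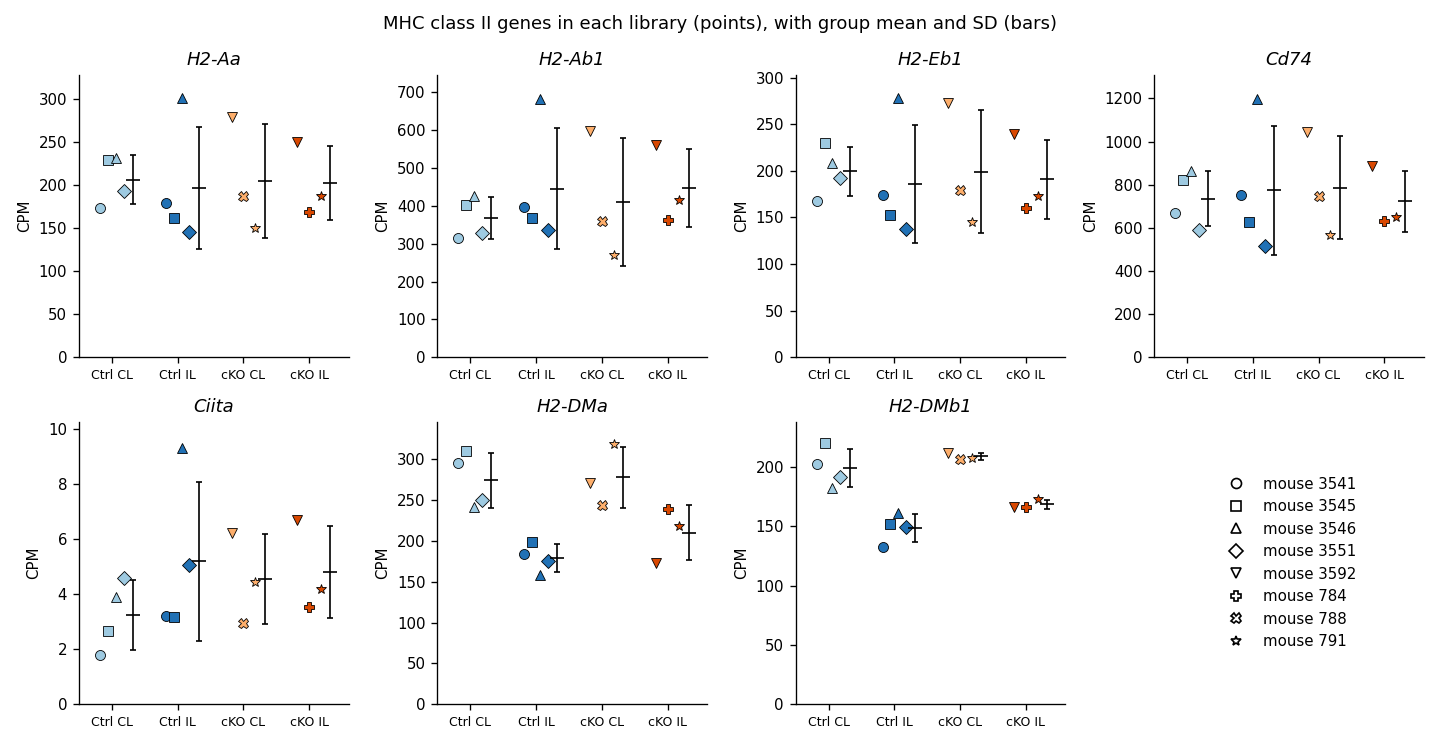
CPM (linear axes from 0) of the 7 members in each of the 14 libraries, by group, with a symbol for each mouse and the group mean ± SD as a bar. *H2-DMa* and *H2-DMb1* are lower in each IL than in each CL library of the same genotype, and mouse 3546 in Ctrl IL and mouse 3592 in both cKO groups stand highest for *H2-Aa*, *H2-Ab1*, *H2-Eb1*, *Cd74* and *Ciita*.

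The chains of the presenting molecules did not share this order. *H2-Aa* (ENSMUSG00000036594), the I-A alpha chain, was at 173, 228, 231 and 192 CPM in Ctrl CL and at 179, 162, 300.3 and 145 CPM in Ctrl IL, so that it was higher with injury in 2 mice and lower in 2. *H2-Eb1* (ENSMUSG00000060586), the I-E beta chain, was at 168, 229, 208 and 193 CPM in Ctrl CL and at 174, 153, 278 and 137 CPM in Ctrl IL, with the same mice on each side. The log2 fold changes were -0.03 (95% confidence interval -0.51 to 0.44) for *H2-Aa* and -0.06 (-0.53 to 0.40) for *H2-Eb1*. As folds the intervals run from 0.704 to 1.36 for *H2-Aa* and from 0.693 to 1.32 for *H2-Eb1*, and changes within them are compatible with these values.
*H2-Ab1* (ENSMUSG00000073421), the I-A beta chain, was at 316, 401, 427 and 328 CPM in Ctrl CL and at 396, 368, 682 and 336 CPM in Ctrl IL, and 3 of 4 mice were higher in IL. *Cd74* (ENSMUSG00000024610) was at 667, 820.3, 863 and 589 CPM in Ctrl CL and at 754, 627, 1199 and 514 CPM in Ctrl IL. For both genes the library of mouse 3546 alone lies above all Ctrl CL values, and for *Cd74* that of mouse 3551 lies below them. The log2 fold changes were 0.31 (standard error 0.21 and adjusted p = 0.452 in limma) for *H2-Ab1* and 0.10 (standard error 0.25 and adjusted p = 0.891 in limma) for *Cd74*.
*Ciita* (ENSMUSG00000022504) was at 1.78, 2.66, 3.92 and 4.6 CPM in Ctrl CL and at 3.21, 3.19, 9.33 and 5.06 CPM in Ctrl IL. It was higher in the IL hemisphere of each of the 4 mice, by 1.10 to 2.38 times, although the groups overlap. Its log2 fold change was 0.56 (standard error 0.30 and adjusted p = 0.320 in limma), and 0.0944 with the mouse as a block, so it was called in neither fit. *Ciita* shares 329 exon bases with the antisense gene *Dexi*.

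In the cKO mice the same comparison again called 0 of 7 members, beside 23.1% of 16756 genes tested. The H2-DM genes were once more lower in each IL than in each CL library, which was so for 24.3% of all genes tested. *H2-DMa* was at 271, 245 and 319 CPM in the CL libraries of mice 3592, 788 and 791, and at 173, 239 and 219 CPM in the IL libraries of mice 3592, 784 and 791. The lowest CL and the highest IL library, 245 and 239 CPM, come from the mice with a single hemisphere. *H2-DMb1* was at 212, 207 and 208 CPM in cKO CL and at 167, 167 and 173 CPM in cKO IL, so that the libraries of a hemisphere lay close together and apart from those of the other. The log2 fold changes were -0.34 (standard error 0.16 and adjusted p = 0.170 in limma) for *H2-DMa* and -0.24 (standard error 0.09 and adjusted p = 0.0758 in limma) for *H2-DMb1*.
With the mouse as a block, where mice 784 and 788 carry no weight and the estimate rests on 2 mice, *H2-DMa* was called with a log2 fold change of -0.52 (standard error 0.13 and adjusted p = 0.0335 in limma). In that fit, 6.12% of all genes were called lower, and *H2-DMb1* was not called (limma adjusted p = 0.240). With the CPM as deposited or with upper-quartile scaling *H2-DMb1* passed instead (adjusted p of 0.0195 and 0.0272 in limma). With those settings 2146 and 2140 of 16756 genes were called lower, beside 1803 in the first comparison of the cKO hemispheres.

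The remaining members overlapped between the cKO hemispheres. *H2-Aa* was at 278, 187 and 149.6 CPM in cKO CL and at 250.1, 168 and 187 CPM in cKO IL. *H2-Ab1* was at 599, 359 and 271 CPM in CL and at 561, 364 and 415 CPM in IL, *H2-Eb1* at 273, 179 and 145 CPM and at 239, 159.8 and 174 CPM. *Cd74* was at 1043, 747 and 569 CPM in CL and at 885, 631 and 651 CPM in IL, and *Ciita* at 6.24, 2.96 and 4.44 CPM and at 6.70, 3.54 and 4.21 CPM. Mouse 3592 was the highest for each of these genes in both hemispheres, and its values lay above those of all other cKO libraries. The log2 fold changes of these 5 genes went from -0.03 for *Cd74* to 0.24 for *H2-Ab1*, with limma adjusted p values of at least 0.545.

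**Figure D2:**
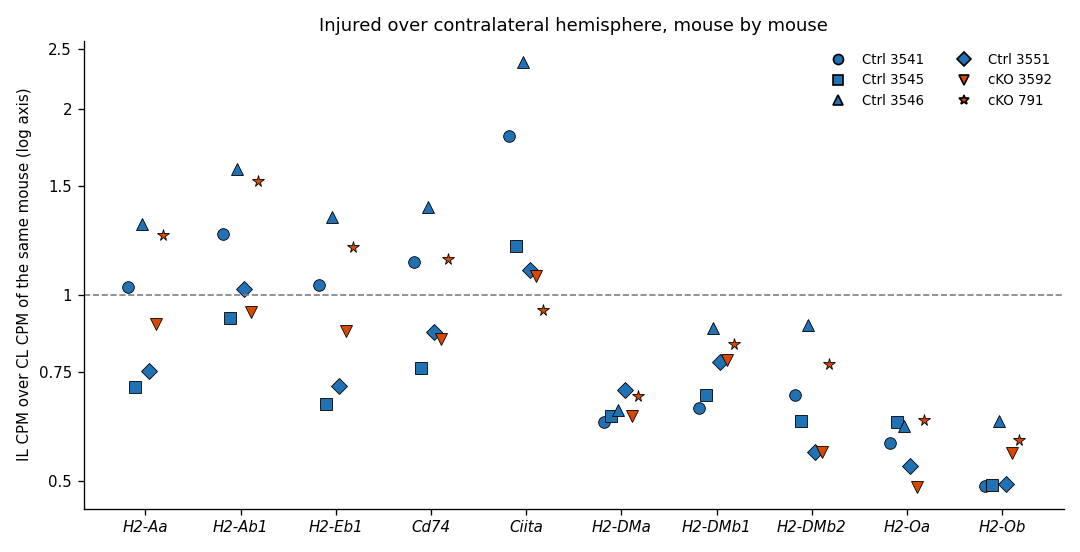
CPM in the IL over CPM in the CL hemisphere of the same mouse (log axis) for the members and for *H2-DMb2*, *H2-Oa* and *H2-Ob*, with a symbol for each of the 4 Ctrl and 2 cKO mice that gave both hemispheres. The points of *H2-DMa*, *H2-DMb1*, *H2-DMb2*, *H2-Oa* and *H2-Ob* all lie below 1, and those of *H2-Aa*, *H2-Ab1*, *H2-Eb1* and *Cd74* lie on both sides of it.

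The other class II loci that encode accessory chains were followed for the same reason. *H2-Oa* and *H2-Ob* encode H2-O, an inhibitor of H2-DM, and *H2-DMb2* encodes an alternative beta chain of H2-DM. All 3 were lower in the IL hemisphere in each of the 6 mice with both hemispheres, at 0.489 to 0.629 of the CL value for *H2-Oa*, 0.491 to 0.626 for *H2-Ob* and 0.558 to 0.894 for *H2-DMb2*. These are ratios of CPM as deposited, and the share of all genes lower in each of these mice was not taken. *H2-DMb2* was not called in Ctrl or in the cKO (limma adjusted p of 0.229 and 0.0743). With the mouse as a block it was not called either (limma adjusted p of 0.0703 and 0.126). In Ctrl mice *H2-Ob* fell from 45.1 ± 6.51 to 24.1 ± 6.62 CPM (SD, n = 4 each) and was called, with a log2 fold change of -0.82 (standard error 0.19 and adjusted p = 0.0315 in limma). *H2-Oa* was at 31.1 ± 4.69 CPM in Ctrl CL and 18.3 ± 3.87 CPM in Ctrl IL, with a limma adjusted p of 0.0904, and 0.00613 with the mouse as a block. In the cKO, *H2-Oa* fell with a log2 fold change of -0.60 (standard error 0.14 and adjusted p = 0.0198 in limma).
*H2-Ob* in cKO mice was not called (log2 fold change -1.56, SE 0.58, limma adjusted p = 0.0899). There 1 library was far from the others, the CL library of mouse 788 with 214 CPM beside 39.5 and 40.6 CPM in mice 3592 and 791. With the mouse as a block, which gives that library no weight, the log2 fold change was -0.71 and *H2-Ob* was called (limma adjusted p = 0.0155). The same library had the highest *H2-DMb2*, 46.8 CPM beside 24.0 and 15.1 CPM, but not the highest value of any member. Its summed level of 8 B cell markers was also the highest of cKO CL, 779 CPM, but *Cd79a* and *Ms4a1*, at 0.526 and 0.277 CPM, were higher in mouse 3592, at 0.968 and 0.465 CPM, and the part of B cells in its *H2-Ob* value was not tested. *H2-Eb2* was near 0, at most 1.13 CPM in any library. *H2-Ea*, the gene of the I-E alpha chain, was not analysed here.

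Within each library the genes of the presenting molecules kept close to a common proportion, and the H2-DM genes did not follow them. The ratio of *H2-Eb1* to *H2-Aa* CPM went from 0.902 to 1.01 over the 14 libraries, with a coefficient of variation of 2.98%, although *H2-Aa* itself varied 2.07-fold with a coefficient of variation of 23.7%. *Cd74* over *H2-Aa* had a coefficient of variation of 7.48%. *H2-DMa* over *H2-Aa* went from 0.525 to 2.13, a 4.06-fold range. These ratios do not depend on the scaling of the libraries, and they compare libraries, since CPM is not per length.
*H2-Ab1* over *H2-Aa* differed between the hemispheres. It was 1.79 ± 0.065 in Ctrl CL and 2.27 ± 0.040 in Ctrl IL (SD, n = 4 each), and the highest Ctrl CL value of 1.85 was below the lowest Ctrl IL value of 2.22. In the cKO it was 2.15, 1.92 and 1.81 in the CL libraries of mice 3592, 788 and 791 and 2.25, 2.16 and 2.22 in the IL libraries of mice 3592, 784 and 791. The ratio was higher in the IL hemisphere in 6 of 6 mice, by 1.04 to 1.36 times, the smallest rise being that of mouse 3592. In Ctrl the difference between hemispheres is several times the SD of either group, but the ratio was singled out after its values were seen and no test is given. The genes encode both chains of I-A, and *H2-Ab1* matches *H2-Eb1* at 73.4% identity over 766 bases.

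**Figure D3:**
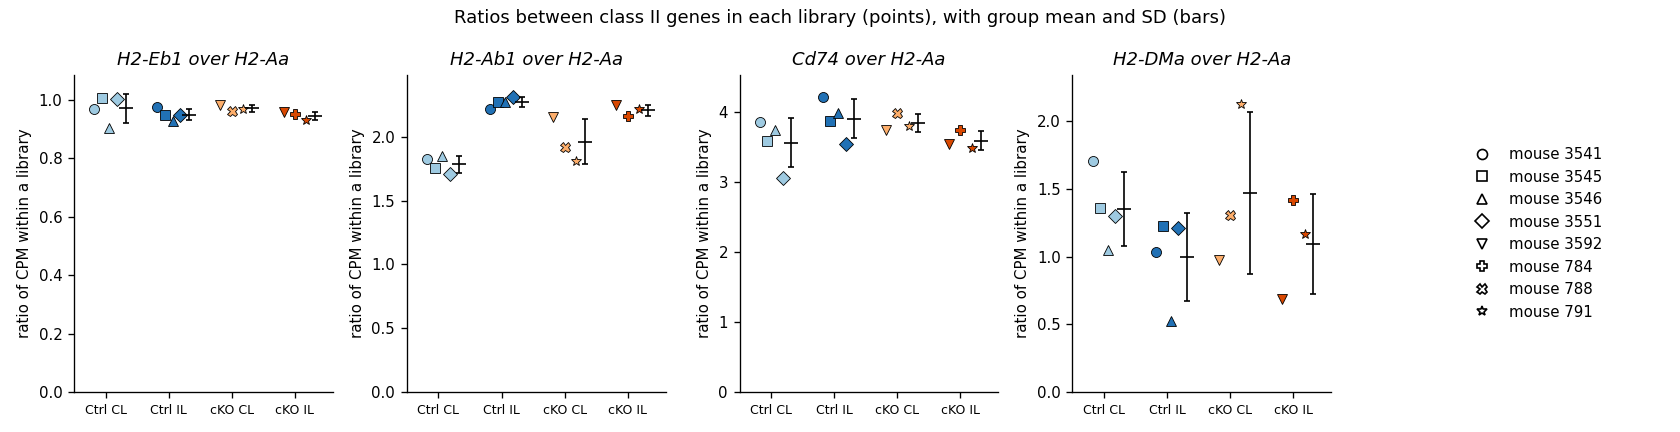
Ratios of CPM within a library (linear axes from 0) for *H2-Eb1*, *H2-Ab1*, *Cd74* and *H2-DMa* over *H2-Aa*, by group, with a symbol for each mouse and the group mean ± SD as a bar. *H2-Eb1* over *H2-Aa* stays between 0.902 and 1.01, *H2-Ab1* over *H2-Aa* is higher in each Ctrl IL than in each Ctrl CL library, and *H2-DMa* over *H2-Aa* spreads from 0.525 to 2.13.

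Single mice set much of the spread. The IL library of mouse 3546 was the highest of Ctrl IL for 6 of 7 members, 1.72 times the next library for *H2-Ab1*, and the lowest for *H2-DMa*. Mouse 3592 was the highest of cKO CL for 6 of 7 members and of cKO IL for 5 of 7, but not for *H2-DMa*. Within groups, the SD of log2(CPM + 1) was 0.34 for *H2-Aa* and *H2-Eb1*, 0.38 for *H2-Ab1* and *Cd74*, 0.42 for *Ciita*, 0.27 for *H2-DMa* and 0.14 for *H2-DMb1*, beside a median of 0.24 over 9756 genes of a mean above 3 on this scale. Of those genes, 10.1% had a smaller SD than *H2-DMb1* and 77.9% a smaller SD than *Cd74*.

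Summed markers of dendritic cells and border-associated macrophages, but not those of B cells, were highest in these libraries. The summed level of 8 dendritic cell markers ran from 69.7 to 101 CPM in Ctrl CL, from 43.8 to 98.6 CPM in Ctrl IL, from 71.3 to 129.5 CPM in cKO CL and from 78.1 to 94.4 CPM in cKO IL. In 4 of 4 groups the library with the highest sum was that with the highest *H2-Aa*, mouse 3546 in both Ctrl groups and mouse 3592 in both cKO groups. In Ctrl CL this was nearly a tie, mouse 3546 being 1.01 times mouse 3545 for *H2-Aa*, and *H2-Eb1* was highest in mouse 3545. Of its markers, *Clec9a* was under 1 CPM in every library and *Flt3* at most 8.94 CPM, while *Ccr7* reached 33.4 CPM. Single markers could go the other way, as *Batf3* was the lowest of Ctrl IL in mouse 3546, with 3.27 CPM, and *Ccr7* the lowest of Ctrl CL, with 3.53 CPM. In mouse 3592 *Ccr7* was the lowest of cKO IL, with 22.5 CPM. *Ccr7* was called higher in IL in both genotypes, and *Batf3* lower in the cKO.
The summed level of 8 border-associated macrophage markers, among them *Mrc1*, *Lyve1* and *Cd163*, was also highest in these same libraries in 4 of 4 groups, but its markers did not all move together. In the IL library of mouse 3546, *F13a1* made up 429.6 of the 829.9 CPM, while *Pf4* and *Ms4a7*, at 21.5 and 58.1 CPM, were the lowest of Ctrl IL. In CL it ran from 342 to 723 CPM for Ctrl and from 189.6 to 509 CPM for cKO, and in IL from 514 to 829.9 CPM for Ctrl and from 328 to 677 CPM for cKO. For 7 infiltrating monocyte markers the same held in 3 of 4 groups, with sums from 121 to 741 CPM in Ctrl CL and from 561 to 864 CPM in Ctrl IL, and from 112 to 316 CPM and from 528 to 757 CPM in the cKO. The B cell sum was highest in the library with the highest *H2-Aa* in 0 of 4 groups, the T and NK cell sum in 3 of 4 and the neutrophil sum in 1 of 4. The B cell sum, mostly *Ighm*, was 568 to 845 CPM in Ctrl CL and 325 to 355 CPM in Ctrl IL, 668 to 779 CPM in cKO CL and 327 to 499 CPM in cKO IL, and *Cd79a*, *Ms4a1* and *Pax5* were under 1 CPM in every library. Neutrophil sums in CL ran from 467 to 6106 CPM for Ctrl and from 459 to 1307 CPM for cKO, in IL from 145 to 844 CPM for Ctrl and from 190.1 to 294 CPM for cKO, and T and NK cell sums were at most 14.1 CPM. The part of these cells, and of the fall in the microglial sum, in the values of the members was not tested.

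**Figure D4:**
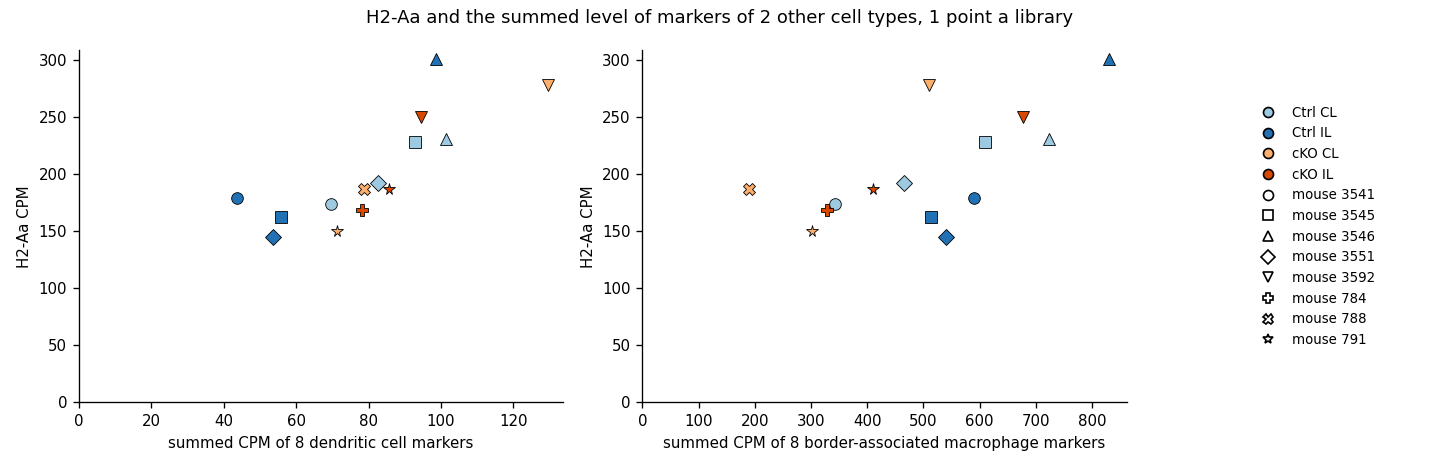
CPM of *H2-Aa* (vertical axis) against the summed CPM of 8 dendritic cell markers and of 8 border-associated macrophage markers (horizontal axes), with 1 point for each of the 14 libraries. In each of the 4 groups the library with the highest *H2-Aa* also has the highest marker sum in both panels, and the IL library of mouse 3546 is the highest of all with 300.3 CPM.

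The comparison of genotypes asked whether the deletion altered the RNA of these cells after injury. No member was called between cKO and Ctrl in either hemisphere (0 of 7 each), beside 0.668% of 16919 genes in IL and 0.903% of 16603 genes in CL, and 0 members had an unadjusted limma p under 0.05, beside 9.24% and 10.2% of all genes. In IL the group means of *H2-Aa* were 202 ± 42.9 CPM in cKO (SD, n = 3) and 196 ± 70.6 CPM in Ctrl (SD, n = 4), and those of *Cd74* were 723 ± 141 and 773 ± 300.1 CPM. The log2 fold changes of *H2-Aa*, *H2-Ab1*, *H2-Eb1*, *Cd74* and *Ciita* lay between -0.02 and 0.10, and their 95% confidence intervals reached from -0.70 to 0.69 for *Ciita* and from -0.41 to 0.60 for *H2-Aa*. As a fold, the interval of *H2-Aa* runs from 0.753 to 1.52, and changes within it are compatible with these values.
The H2-DM genes were the ones with the largest differences in IL. *H2-DMb1* was higher in each cKO IL library (169 ± 3.84 CPM) than in each Ctrl IL library (149 ± 11.8 CPM), which was so for 4.84% of all genes and for 1 of 7 members. Its log2 fold change was 0.20 (standard error 0.10 and adjusted p = 0.611 in limma). *H2-DMa*, averaging 210.1 ± 33.9 CPM (cKO) against 179 ± 17.1 CPM (Ctrl), had a log2 fold change of 0.24 (standard error 0.19 and adjusted p = 0.816 in limma).
In CL, 0 of 7 members had every cKO library above every Ctrl library, beside 3.97% of all genes. The log2 fold change was 0.43 (standard error 0.28 and adjusted p = 0.659 in limma) for *Ciita* and between -0.01 and 0.13 for the others. Whether the difference between hemispheres itself differed between the genotypes was tested over all 14 libraries, without regard to the mouse. It was called for 0 of 7 members and for 0% of 18476 genes (0 genes, with 496, or 2.68%, at an unadjusted limma p under 0.05), and the differences went from -0.47 (SE 0.43) for *Ciita* to 0.14 (SE 0.27) for *H2-DMa*, each with a limma adjusted p of 0.999. This fit leaves out that hemispheres of the same mouse are paired. With the mouse as a random block, 6.93% of genes had an unadjusted limma p under 0.05. In that fit 5 genes were called, and 0 of 7 members.

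**Figure D5:**
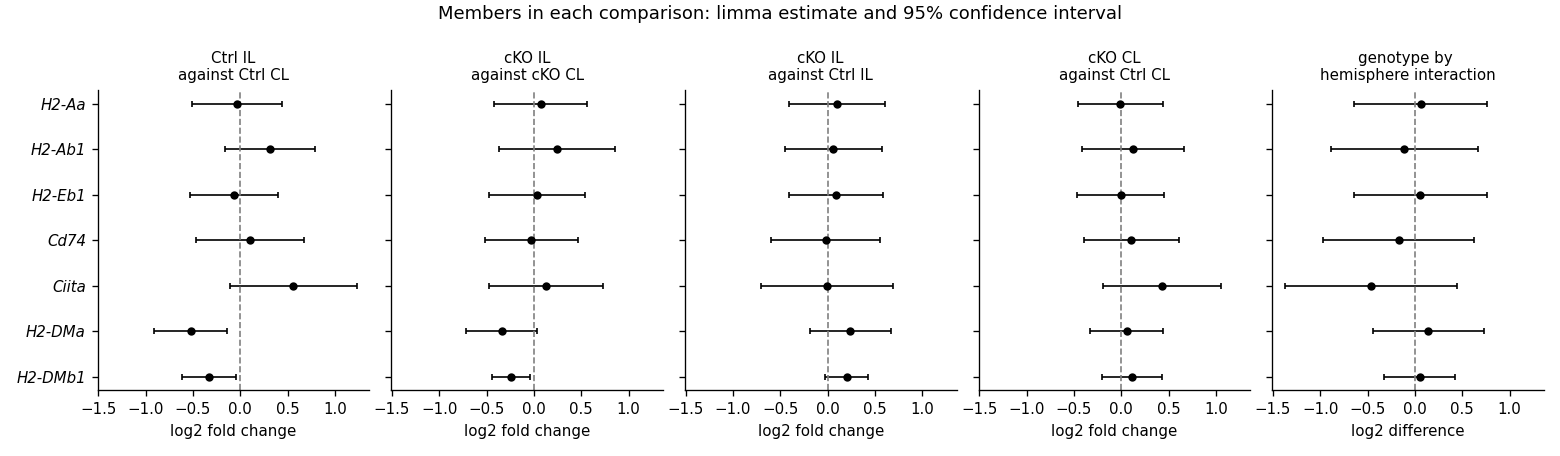
Log2 fold changes of the 7 members with their 95% confidence intervals from limma in the 4 comparisons of groups, and the genotype by hemisphere interaction as a difference of log2 fold changes. The intervals of *H2-DMa* in Ctrl and of *H2-DMb1* in both genotypes lie below 0 for IL against CL, before adjustment over genes, and each other interval includes 0.

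The other genes of the pathway were taken from 5 lists with 30 genes in the table. Of 29 tested in each comparison of groups, 5 were called between Ctrl IL and Ctrl CL and 11 between cKO IL and cKO CL, which is 17.2% and 37.9% of them beside the 7.52% and 23.1% of all genes. Between cKO and Ctrl, 0 of 29 were called in either hemisphere, and 0 of 30 for the interaction. With the mouse as a block, *Rfx5* and *Ctsb* were no longer called in the cKO (adjusted p of 0.101 and 0.126 in limma), while *Creb1*, *Ifi30* and *Socs1* were called in Ctrl and *March8* in the cKO.
Of the interferon gamma axis, the main signal that turns on *Ciita*, the receptor gene *Ifngr1* fell in Ctrl from 926 ± 106 to 514 ± 71.0 CPM, a log2 fold change of -0.77 (standard error 0.16 and adjusted p = 0.0183 in limma). In the cKO it fell by 1.10 on the log2 scale (standard error 0.17 and adjusted p = 0.00456 in limma). *Ifngr2*, *Jak1*, *Jak2*, *Irf1* and *Socs1* were not called in either genotype without the block.
Of the proteins that bind the X and Y boxes with *Ciita*, 0 of 7 were called in Ctrl, and *Rfx5* and *Creb1* fell in the cKO with log2 fold changes of -0.38 (limma adjusted p = 0.0317) and -0.51 (limma adjusted p = 0.0105). The list's median log2 fold change was -0.16 in Ctrl and -0.04 in the cKO, beside -0.03 and 0.01 over all genes tested.
Of 7 proteases and helpers that act on the invariant chain and antigens, 2 were called higher in Ctrl and 3 in the cKO, beside 4.18% and 12.3% of all genes called higher, and 0 were called lower. *Ctsb*, encoding cathepsin B, rose in Ctrl from 5569.9 ± 1203 to 13213 ± 1622 CPM, or 1.35 on the log2 scale (standard error 0.24 and adjusted p = 0.0107 in limma), and *Ctsl*, encoding cathepsin L, by 0.83 (standard error 0.15 and adjusted p = 0.0116 in limma). In the cKO these genes and *Ifi30*, which reduces disulfide bonds of antigens, were called higher, with log2 fold changes of 1.01, 0.99 and 1.01. The list's median log2 fold changes were 0.68 and 0.50, and *Ctss*, encoding cathepsin S, had values of -0.18 and -0.25 that were not called.
Of the genes that remove MHC class II from the surface or respond to interleukin 10, *March1*, encoding a ubiquitin ligase for MHC class II, fell in both genotypes, from 123 ± 13.1 to 66.0 ± 4.98 CPM in Ctrl (log2 fold change -0.80, SE 0.15, limma adjusted p = 0.0130) and from 99.5 ± 10.1 to 54.5 ± 7.58 CPM in the cKO (log2 fold change -0.80, SE 0.11, limma adjusted p = 0.00362). *Il10ra* fell and *Il10* rose in the cKO, with log2 fold changes of -0.53 and 0.80 and limma adjusted p values of 0.0381 and 0.0330. Their values in Ctrl were alike, -0.61 and 0.74, with limma adjusted p values of 0.0542 and 0.0835. With the mouse as a block both were called in Ctrl (0.0114 and 0.0389) and neither in the cKO (0.113 and 0.0840), again as adjusted p in limma.

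The genes most like the members over the 14 libraries were found from the root mean square difference between z-scored log2 profiles, taking the mean profile of 6 members, since *Ciita* was under the minimum mean of 3 on the log2 scale. Of 9750 genes, *Aoah*, *Rdh13*, *Cd300a*, *Lgals8*, *Fcna*, *Rgl1*, *Cnot7* and *Map2k5* were the nearest, with differences from 0.585 to 0.656 beside a median of 1.15. The members themselves were at 0.439 for *H2-Eb1*, 0.466 for *H2-Aa*, 0.481 for *Cd74*, 0.673 for *H2-Ab1*, 0.870 for *H2-DMb1* and 1.04 for *H2-DMa*. *H2-Ab1*, *H2-DMb1* and *H2-DMa* were thus farther from the common profile than each of those 8 genes, although they helped to form it.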

How the data were processed

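Total RNA of CD11b+ cells was made into libraries with Smart Seq v4, and the authors mapped paired-end reads with STAR to mm10 and processed them in Partek Flow 8.0. The deposited table holds CPM, as each of its 14 columns sums to 1000000, although it is labelled as raw counts. Of values under 100 reads, 78.2 to 83.2% lay within 0.03 of a whole multiple of a library's step, too few for a count test, so depth was read from the step and no counts were rebuilt. Strand use in counting is not given in the sources used here. Other deposited tables hold the authors' own comparisons of cKO with Ctrl (p-values, fold changes and group means) and were not used. The gene targeted in the cKO and some genes of the lists are not reported here, although the lists' counts and sums include the latter.

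CPM were scaled by trimmed means of M-values, taken as log2(CPM + 1) and compared with limma 3.58.1 (R 4.3.3) with a mean-variance trend, using the libraries compared, or all 14 for the interaction. Fold changes on this scale understate those of low genes such as *Ciita*. Genes needed the CPM worth 10 reads at median depth in as many libraries as the smaller group has, and 15 reads in total. The procedure was tested on simulated counts with larger changes than those of the members and no effect of the mouse. No result here rests on that test. Replicates are separate mice. Mouse numbers in the labels join hemispheres, and deviations from group means correlated at 0.183 to 0.603 in 6 pairs of the same mouse. The members, lists and rules were chosen with earlier results of these data known. Genes of the pathway lists are named where called in a comparison, together with the other class II loci, as are the 8 genes most like the members. Genes named beyond that rule, among them those listed as not called, single markers and the ratios, were chosen after their values were seen. Alternatives were other scalings, pseudocounts, filters, a single fit of all libraries, the mouse as a block, the adjusted p alone and leaving out each library. Figures were drawn with matplotlib 3.10.9.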

Additional observations from a re-analysis of the deposited data

How the results depend on the processing

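Of 637 values of the members under the alternatives, 561 kept their direction and their side of the threshold, 69 changed sign without being called and 7 became called. Those 7 are *H2-DMa* and *H2-DMb1* alone. Between Ctrl IL and Ctrl CL, 2 members were called with the CPM as deposited and 2 with the mouse as a block. Between cKO IL and cKO CL, 1 was called with the deposited CPM, 1 with upper-quartile scaling (each *H2-DMb1*) and 1 with the mouse as a block (*H2-DMa*). The block changed no other call of a member. The cause of these changes was not tested. No member was called in any of the 294 values that leave out 1 library.

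Signs changed between cKO IL and cKO CL for *H2-Eb1* (-0.033 with the deposited CPM, -0.022 with upper-quartile scaling, -0.015 with all 14 libraries) and for *Cd74* (0.053 with the mouse as a block). Between cKO IL and Ctrl IL that of *Ciita* changed (0.003 with a pseudocount of 0.1, 0.01 with 10 reads in every library). Between cKO CL and Ctrl CL those of *H2-Aa* (0.001), *H2-Eb1* (0.004) with median-ratio scaling and of both with 10 reads in every library (0.022 and 0.025) changed, as did *H2-DMa* (-0.002 without a filter).

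Leaving out 1 library moved the log2 fold changes between Ctrl IL and Ctrl CL from -0.218 to 0.132 for *H2-Aa*, -0.236 to 0.103 for *H2-Eb1* and -0.094 to 0.313 for *Cd74*. Between cKO IL and cKO CL they moved from -0.131 to 0.297 for *H2-Aa*, -0.013 to 0.54 for *H2-Ab1*, -0.17 to 0.268 for *H2-Eb1*, -0.24 to 0.18 for *Cd74* and -0.077 to 0.326 for *Ciita*. Between cKO IL and Ctrl IL they moved from -0.05 to 0.274 for *H2-Aa*, -0.08 to 0.236 for *H2-Ab1*, -0.056 to 0.256 for *H2-Eb1*, -0.214 to 0.167 for *Cd74* and -0.191 to 0.235 for *Ciita*. Between cKO CL and Ctrl CL they moved from -0.222 to 0.188 for *H2-Aa*, -0.158 to 0.377 for *H2-Ab1*, -0.229 to 0.191 for *H2-Eb1*, -0.089 to 0.313 for *Cd74* and -0.051 to 0.14 for *H2-DMa*. The interaction moved from -0.127 to 0.296 for *H2-Aa*, -0.355 to 0.193 for *H2-Ab1*, -0.136 to 0.297 for *H2-Eb1*, -0.385 to 0.044 for *Cd74* and -0.023 to 0.118 for *H2-DMb1*. Other values kept their sign but moved by over 1.5 times. These are *H2-Ab1* (0.128 to 0.469) and *Ciita* (0.312 to 0.687) between Ctrl IL and Ctrl CL, and *H2-DMa* between cKO IL and cKO CL (-0.442 to -0.161, the latter without the IL library of mouse 3592). They are also *H2-DMa* between cKO IL and Ctrl IL (0.135 to 0.414), *Ciita* (0.239 to 0.635) and *H2-DMb1* (0.043 to 0.18) between cKO CL and Ctrl CL, and the interactions of *Ciita* (-0.657 to -0.224) and *H2-DMa* (0.036 to 0.334).

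Over all genes, 1231 were called between Ctrl IL and Ctrl CL (685 higher, 546 lower), but 564 without a filter, 2183 with all 14 libraries and 3350 with the mouse as a block, and 572 to 1658 when leaving out 1 library. With the deposited CPM they were 625 higher and 814 lower. Between cKO IL and cKO CL there were 3870 (2067 higher, 1803 lower), but 1706 with all 14 libraries and 2442 with the block, 1948 to 3629 when leaving out 1 library, and 1647 higher and 2146 lower with the deposited CPM. Between cKO IL and Ctrl IL the 113 calls became 66 without a filter, 171 with all 14 libraries and 188 with the mouse as a random block, and 44 to 294 when leaving out 1 library, the latter without the Ctrl IL library of mouse 3546. Between cKO CL and Ctrl CL the 150 calls became 95 without a filter, 96 with 10 reads in every library, 276 with all 14 libraries and 296 with the random block, and 67 to 161 when leaving out 1 library. For the interaction 0 became 5 with the random block and at most 1 when leaving out 1 library.

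Of the pathway calls named, those between Ctrl IL and Ctrl CL held in 10 (*H2-Ob*), 14 (*Ifngr1*), 16 (*Ctsl*, *Ctsb*) and 17 (*March1*) of 18 alternatives. Those between cKO IL and cKO CL held in 7 (*Il10*), 8 (*Rfx5*, *Il10ra*), 9 (*Ctsb*), 11 (*H2-Oa*), 14 (*Ctsl*), 15 (*Ifi30*) and 16 (*Creb1*, *Ifngr1*, *March1*) of 16. The highest adjusted p in limma was 0.221 for *H2-Ob* and 0.180 for *Rfx5*.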
